A study of Drosophila melanogaster with 4 samples.

Results

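The Enhancer of split complex is a cluster of small genes on chromosome arm 3R of Drosophila melanogaster. It was followed here through the H3K27me3 regions that touch a window of 110 kb on 3R (FlyBase release 5). The window runs from inside the gene boss, left of the complex, to just short of the gene dysf on its right, and was chosen by position and not by any measured value. Of 4865 regions in the list of ChIP replicate 1, 9 touched the window, as did 10 of 10330 in the list of ChIP replicate 2 and 10 of 10507 in the list of the whole series. The 7 genes described are the basic helix-loop-helix (bHLH) genes of the complex, E(spl)mdelta-HLH, E(spl)mgamma-HLH, E(spl)mbeta-HLH, E(spl)m3-HLH, E(spl)m5-HLH, E(spl)m7-HLH and E(spl)m8-HLH, out of 4206 genes placed on 3R. Genes were placed by moving their release 6 positions by the constant offset between the releases on this arm.

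H3K27me3, trimethylation of lysine 27 of histone H3, is made by Polycomb repressive complex PRC2 and marks silenced developmental genes. It was mapped by ChIP-seq with an Abcam antibody of lot 3 in nuclei from heads of Oregon-R-modENCODE flies, a wild-type strain, at the stage given as mixed adult. There were 2 ChIP libraries, and 2 input libraries of genomic DNA from the same strain and tissue. Each ChIP library had 1 input, and the inputs have no list of regions. No label states that the 2 replicates were separate collections of flies, and their spread may be technical. Heads hold many cell types, and a mark present in a few cells at a high level cannot be told apart from one present in many cells at a low level. Read numbers are not given in these lists, so the depth behind each region is unknown.

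When the receptor Notch is cut after binding its ligand Delta or Serrate on a neighbouring cell, its intracellular part enters the nucleus and joins the DNA-binding protein Su(H). The bHLH genes of the complex are the best known targets of that pair. Their proteins repress transcription together with the corepressor Groucho, and in the developing nervous system they hold down the proneural genes, so that neighbouring cells take different fates. Interleaved with them are genes of the Bearded family, whose proteins bind and inhibit the ubiquitin ligase Neuralized, which the sending cell needs for its ligands to work. Polycomb complexes are known to mark many such developmental gene clusters where they are silent.

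H3K27me3 regions covered most of the complex in replicate 1 and nearly all of it in replicate 2 and the whole-series list. Those over the complex ended between Nf1 and the first bHLH gene on the left. On the right they ended between the last bHLH gene and gro. The complex, taken from the outer end of E(spl)mdelta-HLH at 21823343 to the outer end of E(spl)m8-HLH at 21866730, is 43388 bp long. Regions covered 37069 bp of it in replicate 1 (85.4%), 42434 bp in replicate 2 (97.8%) and 42035 bp in the whole-series list (96.9%). The uncovered parts amounted to 6319 bp in replicate 1, 954 bp in replicate 2 and 1353 bp in the whole-series list. The mean of the replicates was 91.6% ± 8.74 in the complex, against 34.4% ± 8.31 over the whole of 3R (SD, n = 2 each). Within each library the complex exceeded the arm by 56.9 points in replicate 1 and by 57.5 points in replicate 2, a mean difference of 57.2 points ± 0.430 (SD, n = 2). Both shares rose from replicate 1 to replicate 2, so the SD of their difference does not measure how closely the replicates agree. With lists cut to equal length by score, the mean was 89.3% ± 5.42 in the complex and 28.6% ± 0.110 over 3R (SD, n = 2 each). That cut evens out the lists, so the small SD over 3R does not measure how closely the replicates agree. With 2 differences the smallest p of a two-sided exact permutation test is 0.5, and no test was made.

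**Figure D1:**
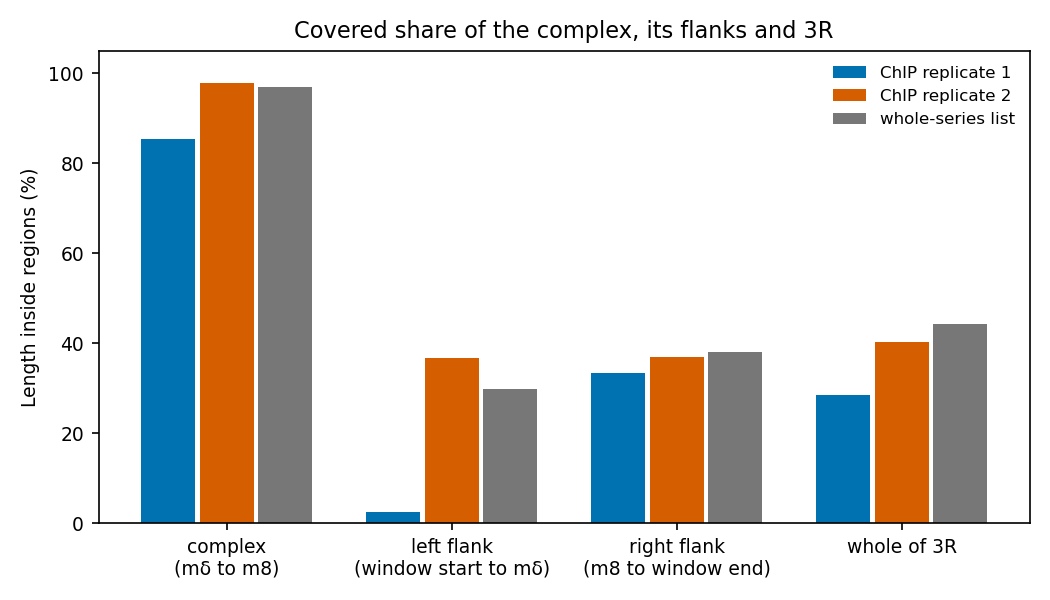
Share of length inside H3K27me3 regions (%), for the complex, the rest of the window to its left and right, and the whole of 3R. Each bar is 1 list, with no error bar. The complex lies between 85.4% and 97.8% in the 3 lists, against 28.5% to 44.4% for 3R.

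Of the 7 bHLH genes, 6 were touched by a region (by at least 1 bp) in replicate 1, where 24.8% of the genes of 3R were, and 7 in replicate 2, where 40.5% were. All 7 were touched in the whole-series list, against 41.2% of the genes of 3R. Covered whole were 5 members in replicate 1, 7 in replicate 2 and 7 in the whole-series list, against 12.8%, 17.2% and 19.9% of the genes of 3R. The members are short, with a median length of 978 bp against 1776 bp for 3R genes, and a short gene is less easily touched but more easily covered whole. In both replicates 6 members were touched and 5 covered whole, against 23% and 10.2% of the genes of 3R. The members are neighbours and some shared a region, so they do not count as independent genes beside these shares. The 2 members that were not covered whole in both replicates were E(spl)mbeta-HLH and E(spl)m3-HLH.

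**Figure D2:**
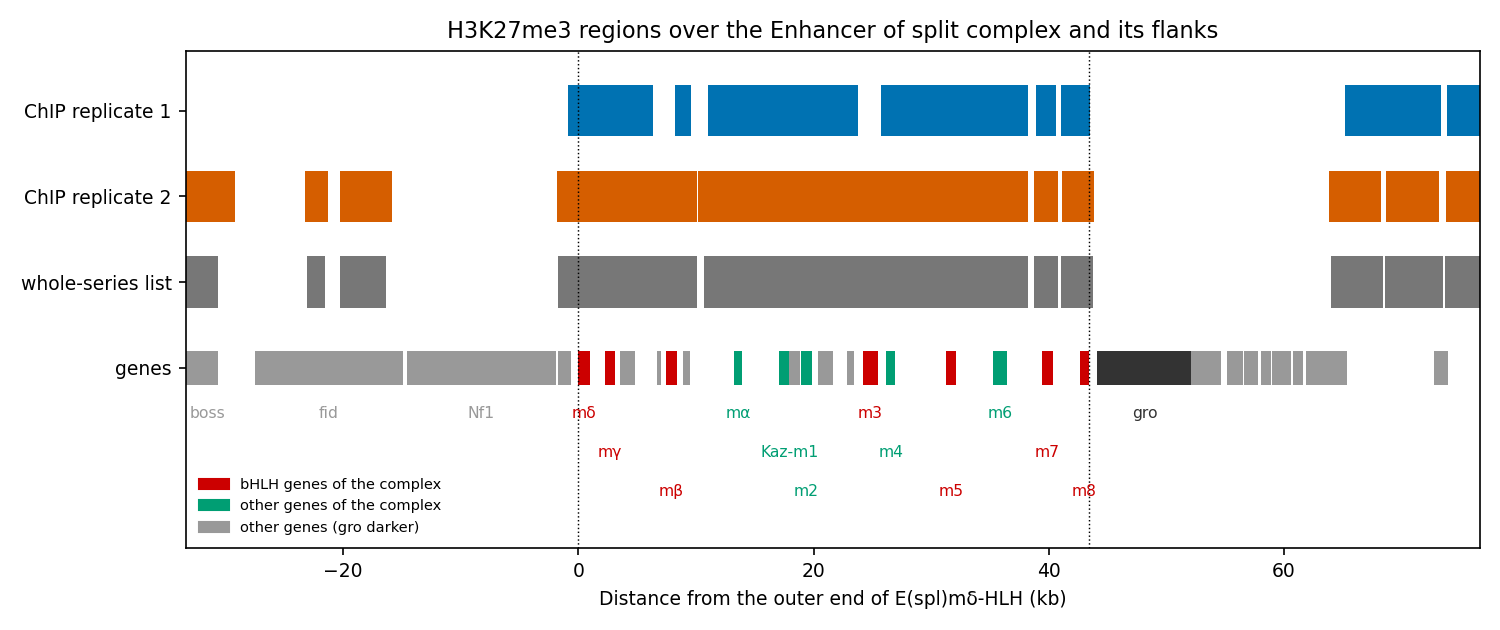
H3K27me3 regions of the 3 lists (bars) above the genes of the window, by distance in kb from the outer end of E(spl)mδ-HLH, with dotted lines at both ends of the complex (mδ to m8). The block over the complex stops before gro on the right, and replicate 1 leaves openings at mβ and m3 that the other lists cover.

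E(spl)mdelta-HLH and E(spl)mgamma-HLH stand at the left end of the complex. E(spl)mdelta-HLH lies at 21823343 to 21824355 and E(spl)mgamma-HLH at 21825573 to 21826483. Both genes shared 1 region in each list and were covered whole in each. That region was 7217 bp wide in replicate 1, 11864 bp in replicate 2 and 11822 bp in the whole-series list. The authors deposited a score with each region. The scale, not given in the sources used here, limits the scores to ranks within a list. The score of this region was above that of 80.2% of the regions in replicate 1, of 90.6% in replicate 2 and of 92.6% in the whole-series list. It thus ranked high in all 3 lists.

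E(spl)mbeta-HLH, at 21830768 to 21831745, was covered whole in replicate 2 and in the whole-series list but to 229 of its 978 bp (23.4%) in replicate 1. Its mean over the replicates was 61.7% ± 54.2 (SD, n = 2), so the replicates did not give one value for this gene. In replicate 1 an uncovered stretch of 1813 bp, at 21829704 to 21831516, took in the left part of the gene and the whole of the noncoding gene lncRNA:CR45038. The region of replicate 1 that reached the gene was 1406 bp wide and scored above 3.23% of its list. In replicate 2 the same gene lay in the wide region that also held E(spl)mdelta-HLH and E(spl)mgamma-HLH.

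E(spl)m3-HLH, at 21847545 to 21848849, was the member missing from replicate 1. The longest uncovered stretch of replicate 1 in the complex, 1967 bp at 21847124 to 21849090, held the whole gene, and the nearest region began 242 bp away. In replicate 2 and in the whole-series list all 1305 bp of the gene were covered, inside a region of 28060 bp in replicate 2 and of 27614 bp in the whole-series list. This was the widest region of the complex in either list, wider than 98.8% of the regions of replicate 2 and 97.8% of those of the whole-series list. Of the replicates, only replicate 2 therefore had E(spl)m3-HLH in a region. The whole-series list is not independent of the replicates. How it was made is not known, so it cannot tell what replicate 1 adds at this gene.

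E(spl)m5-HLH, at 21854576 to 21855457, was covered whole in all 3 lists and lay at least 5485 bp from the nearest edge of its region. The region scored above 91.9% of the list of replicate 1, 89.6% of that of replicate 2 and 94.8% of the whole-series list. In replicate 1 it was 12489 bp wide and also held E(spl)m4-BFM and E(spl)m6-BFM. In replicate 2 and the whole-series list it was the wide region that also held E(spl)m3-HLH. Its ranks there are thus not particular to E(spl)m5-HLH. No other member lay in a region with a higher score in replicate 1.

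E(spl)m7-HLH, at 21862760 to 21863741, was covered whole in all 3 lists, but by a region of its own with the lowest score on the complex in each list. The region was 1710 bp wide in replicate 1, 2038 bp in replicate 2 and 2046 bp in the whole-series list. Its score was 0.409 in replicate 1, above 0.781% of that list. It was 0.643 in replicate 2, above 43.7% of the list, and 0.461 in the whole-series list, above 48.0%. The scores thus lay below the median of their list in all 3, and in replicate 1 close to its lowest values.

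Sequence on both sides of E(spl)m7-HLH was left uncovered in every list. Between E(spl)m6-BFM and E(spl)m7-HLH the uncovered stretch measured 668 bp in replicate 1, 510 bp in replicate 2 and 476 bp in the whole-series list. Between E(spl)m7-HLH and E(spl)m8-HLH it measured 469 bp, 350 bp and 263 bp in the same order. The edges of these stretches lay 10 bp, 168 bp, 160 bp and 41 bp apart between the replicates, counted from left to right. Uncovered in all 3 lists were 459 bp at 21861621 to 21862079 and 263 bp at 21864143 to 21864405. Neither held a gene of the table. One more stretch uncovered in all lists, 94 bp at 21833416 to 21833509, lay between E(spl)mbeta-HLH and E(spl)malpha-BFM.

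E(spl)m8-HLH, at 21865962 to 21866730, is the last bHLH gene before gro and was covered whole in all 3 lists. Its region was 2412 bp wide in replicate 1, 2742 bp in replicate 2 and 2683 bp in the whole-series list. The score lay above 56.1%, 80.5% and 86.7% of the regions of these lists. It ranked above the region of E(spl)m7-HLH in each.

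**Figure D3:**
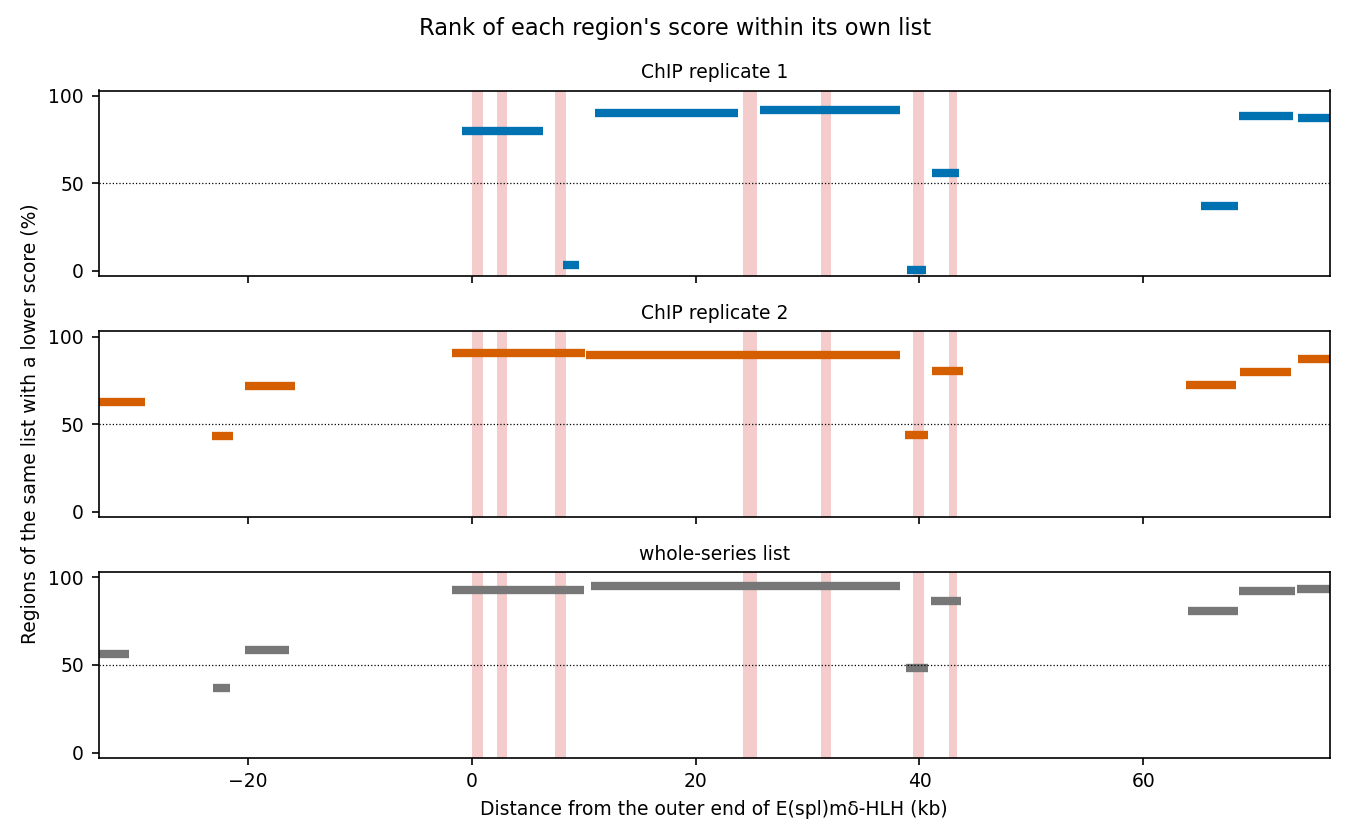
Rank of each region of the window within its own list, as the percentage of regions of that list with a lower score, against distance in kb from the outer end of E(spl)mδ-HLH. Shaded bands are the 7 bHLH genes and the dotted line marks 50%. In each list the region over m7, near 40 kb, is the lowest of those on the complex.

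The genes of other families in the complex carried the mark without a break in all 3 lists. E(spl)malpha-BFM, E(spl)m2-BFM, E(spl)m4-BFM and E(spl)m6-BFM belong to the Bearded family, and Kaz-m1 (formerly E(spl)m1) encodes a protein with a Kazal-type protease inhibitor domain. All 5 were covered whole in replicate 1, in replicate 2 and in the whole-series list, against 12.8%, 17.2% and 19.9% of the genes of 3R. All 5 lay in the same region in replicate 2, and likewise in the whole-series list, so they do not count as independent genes. In replicate 1 the summed length of the bHLH genes was covered to 70.0% (4786 of 6840 bp). That of these 5 genes was covered to 100% (5296 bp), and the sequence between the 12 genes to 86.4% (26987 of 31252 bp). In replicate 2 the bHLH genes and the other genes were covered to 100% each and the sequence between them to 96.9%. The lower cover of the bHLH genes in replicate 1 came from E(spl)mbeta-HLH and E(spl)m3-HLH. Of the 6 noncoding genes annotated between E(spl)mdelta-HLH and E(spl)m8-HLH, 5 were touched in replicate 1 and all 6 in the other lists, where 24.8% of the genes of 3R were touched in replicate 1, 40.5% in replicate 2 and 41.2% in the whole-series list.

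**Figure D4:**
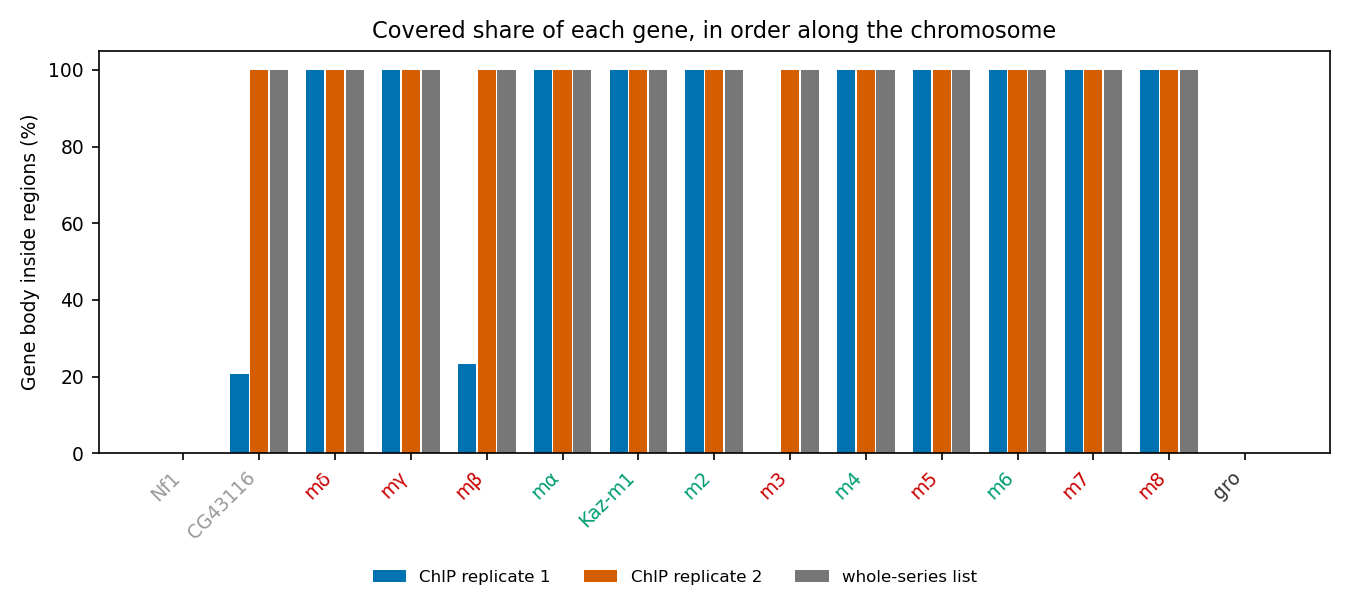
Share of each gene body inside H3K27me3 regions (%), for the 12 genes of the complex and neighbours on both sides, in chromosome order, with 1 bar per list. Red names are bHLH genes and green names the other genes of the complex. Nf1 and gro are at 0 in all lists, m3 is at 0 and mβ at 23.4% in replicate 1.

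As deposited, the domain was cut into 6 regions in replicate 1 and into 4 in replicate 2 and in the whole-series list. Joining regions under 1000 bp apart gave 1 domain of 45658 bp in replicate 2 and 1 of 45518 bp in the whole-series list, but left 4 pieces in replicate 1, the widest of 17748 bp. Joining those under 2000 bp apart, a step chosen after the data were seen, gave 1 domain of 44352 bp in replicate 1 as well. Within the complex the replicates shared 37018 bp, or 99.9% of what replicate 1 covered there and 87.2% of what replicate 2 covered. Replicate 1 alone covered 51 bp, against 5416 bp for replicate 2 alone.

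The right end of the domain fell between E(spl)m8-HLH and gro, which are 727 bp apart. It lay 108 bp beyond E(spl)m8-HLH in replicate 1, 479 bp in replicate 2 and 358 bp in the whole-series list, so the edge moved by at most 371 bp between lists. The gene gro encodes Groucho, the corepressor partner of the bHLH proteins. No base of its 8176 bp, at 21867458 to 21875633, lay in a region of any list. The uncovered stretch common to all lists ran for 19973 bp, from 21867210 to 21887182. It held 10 genes whole, among them gro, Exo84 (a subunit of the exocyst), Vps2 (a subunit of the ESCRT-III complex) and RpL34a (a ribosomal protein). Of the genes of 3R, 55.8% were touched in none of the 3 lists.

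On the left, the domain began between Nf1 and E(spl)mdelta-HLH, which are 1883 bp apart. It started 856 bp outside E(spl)mdelta-HLH in replicate 1, 1791 bp in replicate 2 and 1772 bp in the whole-series list. The edge of replicate 2 was 93 bp from the end of Nf1, which encodes neurofibromin, a Ras GTPase-activating protein. Nf1 itself, 12725 bp long, had no covered base in any list. The small gene CG43116 in the space between was covered to 20.8% in replicate 1 and whole in the other lists. The left edge thus differed by 935 bp between the replicates, more than the right edge.

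Beyond its own neighbours, the left flank differed between the replicates and the right flank did not to the same extent. From the start of the window to E(spl)mdelta-HLH, 2.57% was covered in replicate 1 and 36.8% in replicate 2. Most of the difference came from 3 regions of replicate 2, over boss and fid, which replicate 1 lacked and the whole-series list held in shorter form. The gene boss encodes the ligand of the receptor tyrosine kinase Sevenless in the eye. It was covered to 0% in replicate 1, 65.7% in replicate 2 and 65.3% in the whole-series list. From E(spl)m8-HLH to the end of the window, 33.3% was covered in replicate 1 and 37.02% in replicate 2. There 3 regions of each list began near CG14551 and ran toward dysf, a bHLH-PAS gene just outside the window. Over the whole window the replicates shared 48428 bp, or 98.8% of what replicate 1 covered and 72.3% of what replicate 2 covered.

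Other genes of the Notch pathway could be placed only where they lie on 3R. Of 6 such genes, 1 was touched in replicate 1, 2 in replicate 2 and 2 in the whole-series list, against 24.8%, 40.5% and 41.2% of the genes of 3R. These counts are close to those shares. The gene touched in all lists was Ser, which encodes the ligand Serrate. It was covered to 94.3% in replicate 1, 99.6% in replicate 2 and 100% in the whole-series list. Delta, the gene of the other ligand, had no covered base in replicate 1, and was covered to 38.5% in replicate 2 and 42.0% in the whole-series list. Of the replicates, only replicate 2 thus gave the count of 2.

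The 4 remaining genes had no covered base in any list. These were neur (the ubiquitin ligase Neuralized), H (Hairless, which joins Su(H) to corepressors), Nct (nicastrin, a subunit of the gamma-secretase that cuts Notch) and gro. The nearest region to gro was 620 bp away in replicate 1 and 249 bp in replicate 2. For neur it was 43019 bp and 36391 bp away, for H 35351 bp and 6028 bp, and for Nct 51334 bp and 1389 bp. Among these 4 genes, gro thus lay closest to a region in each replicate.

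Of 12 other bHLH genes on 3R, 8 were touched in each list, against 24.8% of the genes of 3R in replicate 1, 40.5% in replicate 2 and 41.2% in the whole-series list. In both replicates ato, Fer1 and Fer3 were covered whole, tied for the highest mean, while cwo, tgo, sage and bigmax had no covered base in any list. The gene ato (atonal) is the proneural gene of the eye and of chordotonal organs, and tgo (tango) encodes the shared partner of bHLH-PAS proteins. The neighbour dysf was covered to 90.2% in replicate 1, 93.9% in replicate 2 and 99.0% in the whole-series list. The mark was thus found at some bHLH genes of the arm and not at others.

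The genes of 3R with the most similar cover were sought among 3360 protein-coding genes outside the window. For each, the covered share of the 10 kb centred on the gene was compared with the mean of the 7 members in the 3 lists, which was 71.7% in replicate 1, 85.4% in replicate 2 and 84.6% in the whole-series list. The nearest by Euclidean distance was Sulf1, at 4.03 percentage points. Next came Vha100-4 at 4.50, hdly at 4.80, Or85a at 5.07 and soti at 8.51 points. The members themselves ranged from 43.6% (E(spl)m8-HLH) to 100% (E(spl)m5-HLH) in replicate 1. The 10 kb around the outer members reach past the domain. Uncovered stretches inside the domain lowered inner members as well, such as E(spl)mbeta-HLH (67.85%) and E(spl)m3-HLH (80.33%) in replicate 1. The likeness therefore concerns partial cover in 3 values that share libraries.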

How the data were processed

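Per the submitters' processing notes, the authors aligned ChIP-seq reads with Bowtie 0.12.7. Lists of enriched regions are on FlyBase release 5, per the file headers. For the region caller, its threshold, the use of the inputs and the making of the whole-series list (pooled reads or merged calls), methods were not given in the sources used here. Each region has a score that the authors deposited on an unstated scale. It was used for ranks within a list. One region marked as depleted, in replicate 2, was left out.

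Genes came from RefSeq's table of release 6. On 3R, a constant 4174278 bp was subtracted to reach release 5. This left 4206 of 4226 genes (20 fell before the start of the arm), the last ending 10890 bp before the end of the arm. The offset was given for this work and was not checked against sequence. The table gives no strand, so the start sites planned for the members and for 3R genes could not be placed, and whole gene bodies, or 10 kb around the middle of a gene, took their place.

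Cover was counted in base pairs and means are over the 2 replicates. A gene was touched when at least 1 bp lay in a region. The interval code, in Python 3.11.15, matched base-by-base counting in 50 of 50 simulated lists. No test between conditions was possible. Members and gene lists (7 bHLH genes, 5 other genes of the complex, 6 Notch pathway genes, 12 other bHLH genes, 14 head and non-head markers) were chosen with earlier results of these data known. The genes named are these lists, the genes of the window and the 5 nearest in cover, and ties in the other bHLH genes were all named. Alternatives were score and width limits, joining, equal lists, other bounds and overlaps, and each replicate alone. Depth is unknown.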

Additional observations from a re-analysis of the deposited data

How the results depend on the processing

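Of 66 values recomputed under alternatives, 63 stayed within the spread of the replicates or within 1.5 times the count. These limits are wide, so the 63 do not show that the results are stable. Members touched in both replicates fell from 6 to 4 with the score limit and with the width limit, which still counted as within them. Counts of listed genes without replicate 2 could not change, since each gene counted in replicate 1 was also counted in replicate 2. Covered shares of each replicate alone are not among the 66, since with 2 replicates they lie within 1 SD of the mean by construction. They were 85.4% and 97.8% for the complex. Its cover was 76.6% when its right bound was moved to the outer end of gro, which adds uncovered sequence by construction. Score, width, joining and equal-list alternatives gave 85.7% to 100%. Members covered whole in both replicates numbered 3 in place of 5 when gene positions were moved by 250 bp to the right, a check chosen after the data were seen. Members touched in both replicates numbered 7 with that move and 5 with a move of 250 bp to the left, in place of 6. Notch pathway genes touched ranged from 1 to 2 when each replicate was left out. With scores at or above the list median, E(spl)m7-HLH was touched in none of the 3 lists, and E(spl)mbeta-HLH was also lost in replicate 1. With lists of equal length by score, replicate 2 and the whole-series list lost E(spl)m7-HLH, leaving 5 members touched and 4 covered whole in both replicates. With regions of at least 2000 bp, replicate 1 lost E(spl)m7-HLH and E(spl)mbeta-HLH. E(spl)m3-HLH was touched in replicate 1 with gene positions moved by 250 bp to the right. Joining under 2000 bp or 5000 bp also touched it, but by construction, since it lies inside an uncovered stretch of 1967 bp there. Start sites could not be run without strand. No paired analysis was possible because neither input library has regions of its own. Unknown depth limits each comparison of the replicates.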

Other observations

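The labelled tissue was set beside 14 genes of 3R, with the limit that a list of H3K27me3 regions does not measure expression. Of all genes of 3R, 24.8% were touched in replicate 1, 40.5% in replicate 2 and 41.2% in the whole-series list. Of 7 genes of photoreceptors, neurons and glia, 3 were touched in replicate 1, 6 in replicate 2 and 5 in the whole-series list. The rhodopsin gene Rh3 and the light-activated channel gene trp had no covered base in replicate 1 and were covered whole in replicate 2. The rhodopsin gene ninaE was covered to 0% in replicate 1, 70.0% in replicate 2 and 0% in the whole-series list. Another rhodopsin gene, Rh6, was covered to 11.8% in replicate 1 and 100% in the other lists. The gene of choline acetyltransferase, ChAT, was covered to 23.4% in replicate 1, 69.1% in replicate 2 and 74.3% in the whole-series list. For the glial gene repo these shares were 55.2%, 93.6% and 91.1% in the same order. The synaptic gene Syx1A had no covered base in any list.

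Of 7 genes used in other body parts or in the germline, 6 were touched in replicate 1, 7 in replicate 2 and 6 in the whole-series list. The shares of all genes of 3R touched were 24.8%, 40.5% and 41.2% in the same order. The posterior Hox genes Ubx, abd-A and Abd-B were covered to 100% each in replicate 1, and to 98.1%, 95.3% and 97.9% in replicate 2. The patterning gene bcd was covered whole in every list, and osk to 78.5% in replicate 1 and 81.6% in replicate 2. The germline gene bam was covered to 71.0% in replicate 1 and 100% in replicate 2. The testis tubulin gene betaTub85D was covered to 0% in replicate 1, 83.5% in replicate 2 and 0% in the whole-series list. A difference between the replicates of the size seen at E(spl)m3-HLH thus also occurred at Rh3 and trp. Among the 7 genes of other body parts or the germline, only betaTub85D differed by more than E(spl)mbeta-HLH did. Among the 7 genes of photoreceptors, neurons and glia, only Rh3, trp and Rh6 did.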
